A study of Mus musculus with 24 samples.

Results

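ATP-dependent chromatin remodelers are enzymes that spend ATP to slide, eject or exchange nucleosomes and so open or close DNA to transcription factors, polymerases and repair proteins. Each acts through a motor subunit of the SNF2 family, most often inside a complex: BAF complexes are built around Smarca4 (BRG1), ISWI complexes around Smarca5 (SNF2H), NuRD around Chd4, and INO80 around the ATPase of that name, whereas Chd1, Smarcad1 and Hells act largely outside the big complexes. In the mouse embryo, maternal Smarca4 is known to be needed for activation of the zygotic genome, and Chd1 is known for high transcriptional output in pluripotent cells. The genes described here are 10 named remodeler genes out of 55291 genes with a row in the RNA count files: Smarca4, Arid1a, Smarcb1 and Smarcc1 of BAF, Smarca5 of ISWI, Chd1 and Chd4, Ino80, and the single motors Smarcad1 and Hells. They were chosen by name, with earlier results of these data known. Each had counts in all 12 RNA libraries, from 797 counts for Smarcb1 in one library to 51341 for Arid1a in another.

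Zygotes from B6D2F1 (BDF1) parents aged 8 weeks, whose embryos carry the strain label BDF2, had received a 20 µM antisense oligonucleotide (ASO) by injection into the male pronucleus, followed by culture in KSOM. MERVL-KD embryos had received ASOs against MERVL, an endogenous retrovirus that is transcribed in the 2-cell embryo, and control embryos a scrambled ASO. Total RNA was sequenced at the 2-cell (1.5 dpc), 4-cell (2.5 dpc) and 8-cell (2.5 dpc) stages from 30 pooled embryos per library, with 2 libraries of each of 6 groups, and the question behind the design is what follows in preimplantation embryos when MERVL RNA is lost. The study's methods say that embryos were pooled by the cleavage stage seen under a microscope, and the 4-cell and 8-cell labels give the same embryonic day. All embryos had been injected, and no uninjected group was analysed here.

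Library totals ranged from 28167085 to 41482526 counts. MERVL-int, the internal part of the retrovirus and the target of the knockdown, took 6.33% to 6.57% of the counts in control and 0.143% to 0.157% in MERVL-KD 2-cell libraries, 1.78% to 2.07% against 0.0331% to 0.0544% at the 4-cell stage, and 1.07% to 1.08% against 0.0278% in both MERVL-KD libraries at the 8-cell stage, so all 12 libraries matched their labels. Defining genes of cumulus and granulosa cells were nearly absent (9 genes summing to at most 6.42 CPM, counts per 1000000, in any library), and oocyte coat and growth factor genes were present at all stages. Nanog and Tead4, which mark later cleavage, belong to a list of 7 genes that summed to 128 to 142 CPM in control 2-cell and 338 to 380 in control 8-cell libraries.

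The ASOs act on RNA by base pairing, so their sequences are shown against the remodeler genes. Each is given 5′ to 3′ in lower case.
MERVL-ASO1: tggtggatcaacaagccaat
MERVL-ASO2: catttgtctgtttaccacga
MERVL-ASO3: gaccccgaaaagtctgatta
Scramble-ASO: agcgcgggtattgaaccagg
The strand of each gene body that reads like its RNA was searched in GRCm38, the build of the count files, for the reverse complement of each MERVL ASO. None of the 10 remodeler genes held a site with 3 or fewer mismatches, introns included. The closest was 1 site in an intron of Arid1a at chr4:133711475-133711494 on the minus strand, with 4 mismatches to the target of MERVL-ASO2, which is shown because Arid1a is the one remodeler with any site at this limit; the capitals mark the mismatched bases.
Target of MERVL-ASO2: tcgtggtaaacagacaaatg
Arid1a intron: tcAtggGaaacagacaGGtg
Counted from 1 at the 5′ end of the target, the substitutions were G3A, T7G, A17G and A18G. As a check of the search, Csnk2a1 and Iars, which hold MERVL copies in introns, gave sites with 0 or 1 mismatch. Among 88 other genes of remodeling complexes, listed to give the context of the 10 genes, 5 held a site with 4 mismatches and none a closer one.

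Levels between genes were compared as CPM scaled by TMM, a method that sets libraries to a common scale from the bulk of their genes, and divided by the exonic length in kb that the files give (CPM per kb). In control 2-cell embryos Arid1a, the DNA-binding subunit that defines one class of BAF complex, was highest at 119 ± 5.6 CPM per kb (SD, n = 2), followed by Smarca5 at 69.6 ± 5.8 and Chd1 at 49.0 ± 6.0. Chd4 at 41.3 ± 0.17 and Smarca4 at 40.4 ± 3.8 CPM per kb differed by less than their spread. Below them came Hells (27.1 ± 0.54), Smarcc1 (23.1 ± 1.4), Ino80 (13.7 ± 0.11), Smarcad1 (6.75 ± 0.059) and Smarcb1 (4.32 ± 0.34). The exonic length joins every annotated isoform, 13322 bases for Smarcad1 and 6475 for Smarca4, so a gene with long minor isoforms reads low on this scale.

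Paralogs from the same complexes were present at lower levels per length, and some of them were lower at the 4-cell stage where their partner was not; differences between paralogs were not tested. Smarca2, which can replace Smarca4 as the BAF motor, stood at 10.9 CPM per kb in control 2-cell and 1.13 in control 4-cell embryos, a log2 change of −3.27 ± 0.16 (SE; adjusted p = 2.81e-13 in edgeR), while Smarca4 rose, so that the ratio of Smarca4 to Smarca2 went from 3.70 to 89.3. Arid1b fell by 1.96 on the log2 scale (adjusted p = 2.55e-12) beside an Arid1a with no call, and their ratio went from 4.10 to 16.1. Chd3, a NuRD motor like Chd4, fell by 1.60 (adjusted p = 5.25e-06), and the ratio of Chd4 to Chd3 went from 20.6 to 88.9, whereas that of Chd4 to Chd5 was 104 and 111. Smarcc2 had no called change (log2 change 0.07, adjusted p = 0.715), and Smarca1 was listed at no more than 0.309 CPM per kb in any group.

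**Figure D1:**
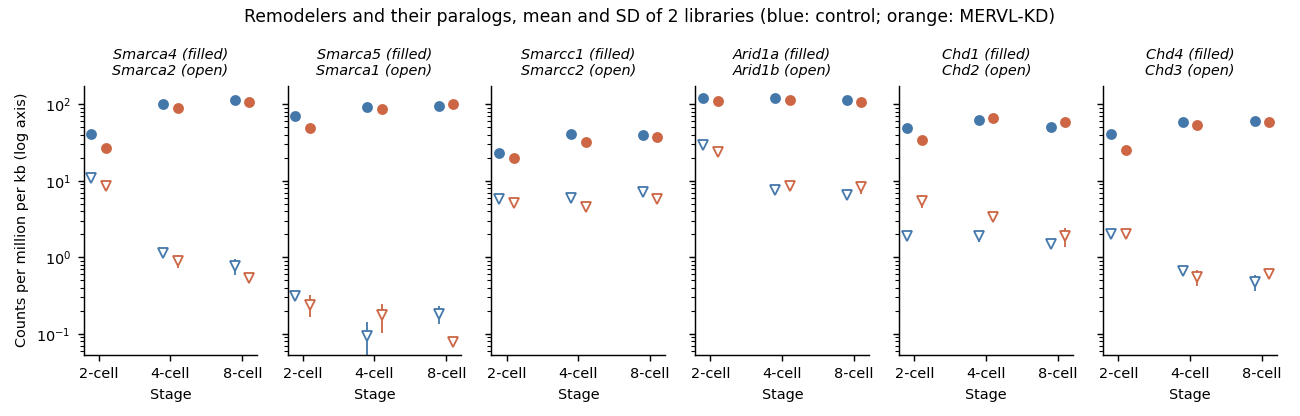
Mean level of 6 remodelers (filled circles) and a paralog of each (open triangles) in CPM per kb on a log axis, by stage, with the SD of 2 libraries as bars, in control (blue) and MERVL-KD (orange) embryos. Smarca2, Arid1b and Chd3 lie lower at the 4-cell than at the 2-cell stage, while Chd2 in MERVL-KD 2-cell embryos lies above its control (5.46 against 1.90).

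From the 2-cell to the 4-cell stage of control embryos, most of the remodelers rose relative to the bulk of genes. The level of Smarca4 was 244 and 279 CPM in the 2-cell and 642 and 665 CPM in the 4-cell libraries, a log2 change of 1.32 ± 0.10 (SE; adjusted p = 1.25e-10). Ino80, the motor of a complex that moves nucleosomes and exchanges the histone variant H2A.Z, had 92.6 and 93.7 CPM before and 204 and 228 CPM after (log2 change 1.21 ± 0.11, adjusted p = 2.70e-09). Smarcad1, which counteracts nucleosomes at repair and replication sites, had 90.5 and 89.4 CPM and then 179 and 196 CPM (1.06 ± 0.10, adjusted p = 9.04e-09). Every 4-cell library lay above every 2-cell library in these 3 genes and also in Smarcc1, Chd4, Smarca5 and Chd1. The share of all genes with such a separation was not counted. Smarcc1, a core subunit of BAF, rose by 0.83 on the log2 scale, Chd4 by 0.51, Smarca5 by 0.38 and Chd1 by 0.34. In all, 7 of the 10 genes passed the test upward and 0 downward at an adjusted p under 0.05. Of all 24040 genes tested, 26.4% were called higher and 28.7% lower. The members' median log2 change was 0.44 against −0.06 over all genes. Arid1a (0.02), Smarcb1 (0.13) and Hells (−0.06) did not pass. The Chd1 call was lost without control 2-cell replicate 1 (log2 change 0.20, adjusted p = 0.160) and without control 4-cell replicate 2 (0.25, adjusted p = 0.121).

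MERVL-KD embryos passed through the same stage with 8 genes called higher and 1 lower, where 27.1% of all genes were called higher and 27.3% lower. Smarca4 rose by 1.71, Chd4 by 1.11, Ino80 by 1.07, Chd1 by 0.99, Smarca5 by 0.79, Smarcc1 by 0.72, Smarcad1 by 0.63 and Smarcb1 by 0.59 on the log2 scale, and Hells fell by 0.37 (adjusted p = 0.00437). The median was 0.76 against −0.06 over all genes. The Hells call was lost without MERVL-KD 2-cell replicate 1 (adjusted p = 0.154) and without MERVL-KD 4-cell replicate 1 (0.0649), and the Smarcb1 call without MERVL-KD 4-cell replicate 2 (0.0831).

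None of the 10 genes was called between the control 4-cell and 8-cell libraries, where 5.87% of all genes were called in either direction. The log2 changes lay between −0.30 (Ino80, adjusted p = 0.10) and 0.17 (Smarcb1), and DESeq2 also called 0 of the 10 genes. In edgeR 2 of the 10 had an unadjusted p under 0.05, as did 4650 of all 24040 genes tested. With library size alone Ino80 (−0.50), Chd1 (−0.50) and Arid1a (−0.30) were called lower, in the fit of only the 4 libraries compared Chd1 (adjusted p = 0.0178) and Ino80 (0.0368), and with at least 10 counts in every library Chd1 (0.0447). In MERVL-KD embryos 2 were called higher, with 2.27% of all genes called higher: Smarcad1 by 0.62 (adjusted p = 0.00119) and Hells by 0.45 (adjusted p = 0.0158). The Hells call was lost without MERVL-KD 4-cell replicate 1 (adjusted p = 0.136), with library size alone (0.0830) and in the fit of only the 4 libraries compared (0.0713).

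**Figure D2:**
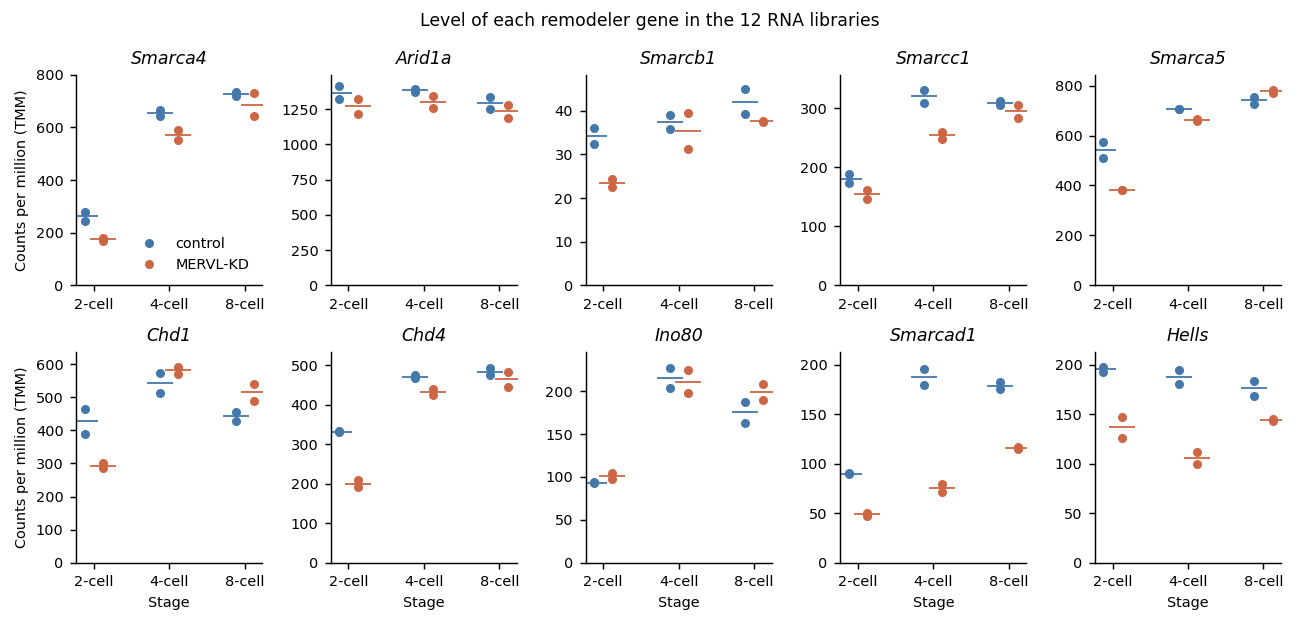
Level of each of the 10 genes in CPM (TMM), on axes that start at 0, in the 12 RNA libraries by stage: points are libraries and dashes group means, in control (blue) and MERVL-KD (orange) embryos. Most genes stand higher at the 4-cell than at the 2-cell stage. Smarcad1 and Hells in MERVL-KD embryos stay below their controls at all 3 stages (Smarcad1 at the 2-cell stage: 46.8 and 50.3 against 90.5 and 89.4 CPM). The share of all genes below their controls at all 3 stages was not counted.

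In 2-cell embryos most remodeler transcripts were lower in MERVL-KD than in control embryos relative to the bulk of genes. With TMM scaling, 7 of the 10 genes were called lower and 0 higher, where 7.39% of 20604 genes were called lower and 6.7% higher, and none of the 7 reached a 2-fold change. Of 87 other tested genes of remodeling complexes, 16.1% were called lower. The 10 genes were chosen with earlier results of these data known, and the part of that choice in the count was not tested. The members' median log2 fold change was −0.44 against 0.01 over all genes tested. The CPM values quoted are scaled over 12 libraries and the fold changes over the 4 libraries of the stage, so log2 ratios of the quoted values lie 0.0831 to 0.0852 below the fitted ones at the 2-cell stage, and less than 0.01 below them at the later stages.

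Smarcad1 differed most, with 90.5 and 89.4 CPM in control and 46.8 and 50.3 CPM in MERVL-KD libraries, a log2 fold change of −0.81 ± 0.10 (SE; adjusted p = 6.34e-05). Chd4, the motor of the NuRD deacetylase complex, had 332 and 330 CPM in control and 191 and 210 CPM in MERVL-KD libraries (−0.64 ± 0.08, adjusted p = 9.01e-05). Smarca4 had 244 and 279 CPM in control and 169 and 181 CPM in MERVL-KD libraries (−0.50 ± 0.09, adjusted p = 0.00132). Chd1, the motor that follows elongating RNA polymerase II, had 390 and 464 CPM against 302 and 285 CPM (−0.45 ± 0.09, adjusted p = 0.00277). Smarca5, the motor that spaces nucleosomes in ISWI complexes, had 509 and 573 CPM against 383 and 382 CPM (−0.42 ± 0.08, adjusted p = 0.00232). Hells, a motor needed for DNA methylation at repeats, had 193 and 198 CPM against 147 and 126 CPM (−0.43 ± 0.10, adjusted p = 0.00621). Smarcb1, the core BAF subunit and the lowest of the 10 genes, had 36.2 and 32.3 CPM against 24.5 and 22.5 CPM (−0.46 ± 0.14, adjusted p = 0.0335), and its call was lost without control 2-cell replicate 1 (adjusted p = 0.208) or MERVL-KD 2-cell replicate 2 (0.0890).

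The other members of BAF and INO80 did not pass. Arid1a had 1322 and 1413 CPM in control and 1218 and 1324 CPM in MERVL-KD libraries, which overlapped (log2 fold change −0.02 ± 0.07, adjusted p = 0.895). Smarcc1 had 173 and 188 CPM against 162 and 147 CPM (−0.14 ± 0.09, adjusted p = 0.357), and Ino80 had 92.6 and 93.7 CPM against 97.6 and 104 CPM (0.20 ± 0.09, adjusted p = 0.180). In CPM, both MERVL-KD libraries lay below both controls for 8 of the 10 genes, all but Arid1a and Ino80, as they did for 33.7% of the 20604 genes tested. Within BAF, the motor and Smarcb1 were thus called and Arid1a and Smarcc1 were not; the differences between these genes were not tested.

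**Figure D3:**
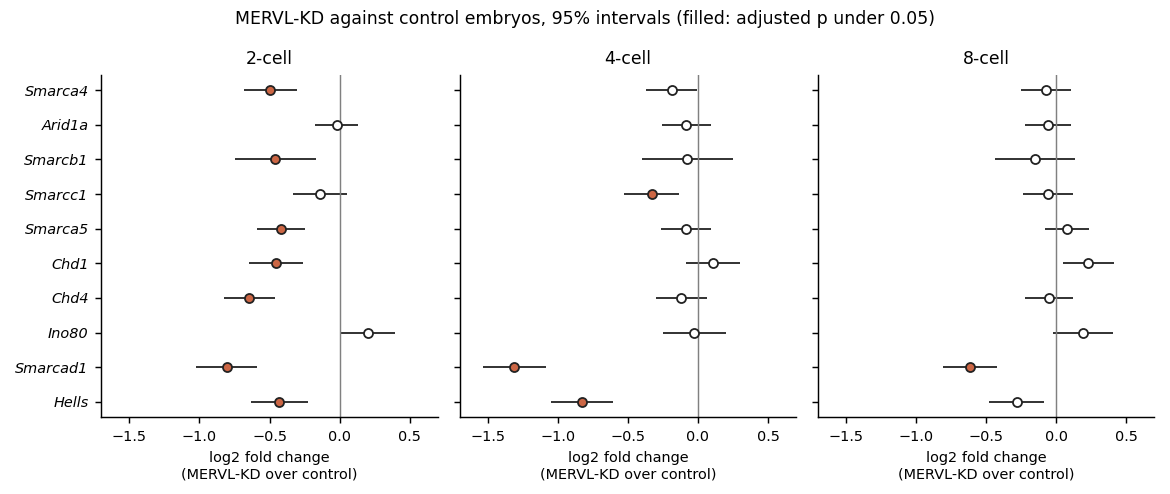
Log2 fold change of MERVL-KD over control embryos for each gene at each stage, with 95% intervals from the edgeR fit of the 4 libraries of that stage; filled points have an adjusted p under 0.05. From left to right the panels hold 7, 3 and 1 filled points, and with TMM scaling all lie below 0.

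The scale on which the 2-cell libraries were set moved these counts of calls. Repeat families held 23.6% to 25.2% of the counts in control and 15.8% to 16.5% in MERVL-KD 2-cell libraries. With library size alone as the scale, the median of all genes shifted from 0.01 to 0.30, 4329 genes were called higher and 690 lower in place of 1381 and 1523, and the remodelers were called 2 higher (Ino80 and Arid1a, log2 fold changes 0.49 and 0.27) and 2 lower (Smarcad1, −0.52, adjusted p = 0.00180, and Chd4, −0.36, adjusted p = 0.00624). The other 5 calls were then lost, with log2 fold changes from −0.21 (Smarca4) to −0.13 (Smarca5). Under a TMM scale from gene rows alone, without the repeat families, 7 genes were again called lower. Smarcad1 and Chd4 kept an adjusted p of at most 0.00180 and 0.00624 under every alternative tried.

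**Figure D4:**
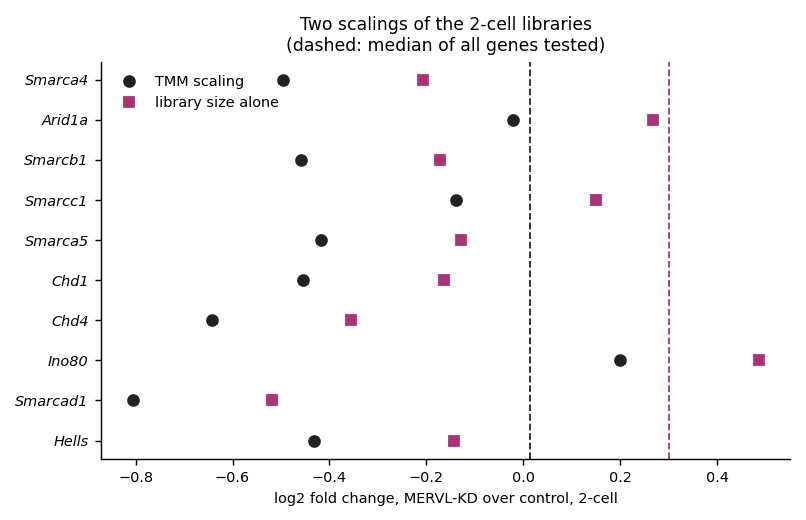
Log2 fold change of MERVL-KD over control at the 2-cell stage for each gene, with TMM scaling (black circles) and with library size alone (purple squares); dashed lines mark the median of all genes tested under each scale, 0.01 and 0.30. The values with library size alone lie to the right of those with TMM scaling by about the distance between the dashed lines, as for Smarcad1 (−0.52 and −0.81).

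Stage markers also differed between the groups at the 2-cell stage. The 7 oocyte genes summed to 1083 and 1142 CPM in control and 685 to 784 CPM in MERVL-KD libraries, with 2 of 7 called lower, and the 7 genes of the 2-cell stage (the Zscan4 family and others) to 695 to 771 CPM against 395 to 493 CPM, with 4 of 7 called lower. The 7 genes of the 8-cell stage and later summed to 128 to 142 CPM against 96.7 to 120 CPM, with 1 of 7 called higher and 0 lower. Their median log2 fold change was 0.49, so their sum and their median went in opposite directions. The medians of the oocyte and 2-cell lists were −0.27 and −0.64. The part of these differences in the remodeler result was not tested. In pooled embryos, fewer embryos with a transcript and less transcript per embryo cannot be told apart.

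At the 4-cell stage only 3 of the 10 genes were called, all lower: Smarcad1, Hells and Smarcc1, with 5.84% of 19738 genes called lower and 4.92% higher. Smarcad1 had 179 and 196 CPM in control and 79.0 and 71.3 CPM in MERVL-KD libraries, a log2 fold change of −1.31 ± 0.10 (SE; adjusted p = 1.13e-05). It was the 1 remodeler of the 10 with a change of at least 2-fold, where 1.88% of genes were called lower by that much. Hells had 195 and 181 CPM in control and 99.7 and 112 CPM in MERVL-KD libraries (−0.82 ± 0.10, adjusted p = 0.000372). For both genes the groups stood well apart, and both calls held with library size alone (−1.25 and −0.76). Smarcc1 had 331 and 310 CPM against 260 and 249 CPM (−0.33 ± 0.09, adjusted p = 0.0377), a call lost in 6 alternatives, with adjusted p between 0.0171 and 0.305 over all of them. The members' median was −0.10 against 0.03 over all genes, and Smarca4, Arid1a, Smarcb1, Smarca5, Chd1, Chd4 and Ino80 had log2 fold changes between −0.19 and 0.11 with no call. The 95% interval of Smarca5 was −0.26 to 0.09, that of Chd4 −0.30 to 0.06, and that of Smarca4 −0.37 to −0.0039 (adjusted p = 0.192). The list of the 8-cell stage and later summed to 267 to 285 CPM in control and 203 to 232 CPM in MERVL-KD libraries at this stage. Of its 7 genes, 2 were called higher and 2 lower, with a median log2 fold change of 0.29. The oocyte and 2-cell lists had medians of 0.42 and 0.19, with 0 of 7 and 1 of 7 genes called lower and 0 higher. The part of these differences was not tested.

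Hells and its partner Cdca7 can be set side by side, since Cdca7 is the zinc finger protein that recruits the Hells motor to nucleosomes. Cdca7 had 48.2 and 47.5 CPM in control and 31.0 and 32.0 CPM in MERVL-KD 4-cell libraries (log2 fold change −0.60 ± 0.13, adjusted p = 0.0113), so both partners were called lower at this stage. At the 2-cell stage Hells was called and Cdca7 was not (−0.32 ± 0.19, adjusted p = 0.297). From the 2-cell to the 4-cell stage of control embryos Cdca7 rose by 1.62 on the log2 scale (adjusted p = 1.06e-08), Hells was not called, and the ratio of Hells to Cdca7 per length went from 5.58 to 1.75.

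At the 8-cell stage Smarcad1 alone of the 10 genes was called, with 175 and 182 CPM in control and 114 and 117 CPM in MERVL-KD libraries (log2 fold change −0.62 ± 0.09, SE; adjusted p = 0.00191), where 3.56% of 18414 genes were called lower and 1.5% higher. Its adjusted p stayed at or below 0.0101 in all alternatives. Hells had 184 and 169 CPM against 145 and 143 CPM and did not pass (−0.28 ± 0.09, adjusted p = 0.0999). Chd1 had 430 and 455 CPM in control and 542 and 490 CPM in MERVL-KD libraries, which did not overlap but did not pass either (0.23 ± 0.08, adjusted p = 0.144); with library size alone it was called (0.36, adjusted p = 0.0425), as it was without MERVL-KD 8-cell replicate 2 (0.30, adjusted p = 0.00561). The other 7 genes had log2 fold changes from −0.15 (Smarcb1) to 0.19 (Ino80). The members' median was −0.06 against 0.01 over all genes. The list of the 8-cell stage and later summed to 338 to 380 CPM in control and 289 to 324 CPM in MERVL-KD libraries. Of its 7 genes, 2 were called lower and 0 higher, with a median log2 fold change of −0.10. The oocyte and 2-cell lists had medians of −0.19 and 0.24, with 0 genes called in either list. The part of these differences was not tested.

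The knockdown effect, meaning the log2 fold change of MERVL-KD over control with its sign, was compared between stages in one fit of all 12 libraries. A higher effect can thus be a weaker decrease. For Chd1 and Chd4, the effect at the 4-cell stage was higher than at the 2-cell stage, by 0.64 ± 0.14 and 0.60 ± 0.12 on the log2 scale (adjusted p = 0.0106 and 0.00751), with 2.51% of 24040 genes called in that direction. For Smarcad1 the effect rose from the 4-cell to the 8-cell stage by 0.69 ± 0.14 (adjusted p = 0.0279), with 0.275% of genes called higher. Its decrease was thus weaker at the 8-cell stage (−1.31 and −0.62 in the fits of each stage). The contrast of the 8-cell with the 2-cell effect was added after the values had been seen, and it called 4 genes higher, Chd1 (0.76), Chd4 (0.67), Smarca5 (0.57) and Smarca4 (0.50), where 2.39% of genes were called higher. Smarca5 had no called difference between the 2-cell and the 4-cell effect (0.41 ± 0.12, adjusted p = 0.0558). It was called there by the DESeq2 Wald test (adjusted p = 0.0100) and in edgeR with DESeq2 size factors (0.0432). Smarcad1 had no called difference between the 2-cell and the 4-cell effect (−0.43 ± 0.14, adjusted p = 0.0990) or the 2-cell and the 8-cell effect (0.26, adjusted p = 0.366). Smarcad1 was called in the contrast of the 4-cell with the 2-cell effect with library size alone (adjusted p = 0.00527), with at least 10 counts in every library (0.0256), without control 8-cell replicate 1 (0.0459) or 2 (0.0460) and without MERVL-KD 8-cell replicate 2 (0.0280).

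These contrasts were among the least settled values. With library size alone, the median of all genes in the contrast of the 4-cell with the 2-cell effect shifted from 0.05 to −0.25, Chd1 and Chd4 were no longer called (0.33, adjusted p = 0.173, and 0.30, adjusted p = 0.160), and Smarcad1 and Hells were called lower (−0.73 and −0.62). In the added contrast, library size alone left Chd1 and Chd4 called. The Smarcad1 difference between the 8-cell and the 4-cell effect lost its call without control 4-cell replicate 2 (adjusted p = 0.130), MERVL-KD 4-cell replicate 2 (0.0728) or control 8-cell replicate 1 (0.0858). Without MERVL-KD 4-cell replicate 2, Chd1 (adjusted p = 0.0711) and Chd4 (0.0849) lost their calls in the contrast of the 4-cell with the 2-cell effect as well. The Chd1 call was also lost without control 2-cell replicate 2 (0.0607) or control 4-cell replicate 1 (0.0709), and the Chd4 call without MERVL-KD 2-cell replicate 1 (0.0572). In the added contrast Smarca4 was called with an adjusted p of only 0.0390 and lost the call under 12 alternatives, Smarca5 lost it under 4, and Chd4 lost it without control 8-cell replicate 1 (adjusted p = 0.0574).

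The other genes of remodeling complexes give the setting. Among the 87 of 88 listed genes that were tested, 2 passed upward and 14 downward in 2-cell embryos, 2 and 18 in 4-cell embryos, and 1 and 6 in 8-cell embryos, with medians of −0.09, −0.17 and −0.10. The downward shares were 16.1%, 20.7% and 6.90%. Of all genes tested, 6.7% passed upward and 7.39% downward at the 2-cell stage. These shares were 4.92% and 5.84% at the 4-cell and 1.5% and 3.56% at the 8-cell stage. The medians of all genes were 0.01, 0.03 and 0.01. The scale decided the split in 2-cell embryos, where library size alone gave 21 higher and 6 lower; later it gave 3 and 14, and 2 and 3. Single libraries moved it too: in 4-cell embryos 10 were lower without control replicate 1 and 11 without control replicate 2, and in 8-cell embryos 13 were lower without MERVL-KD replicate 1 and 14 without MERVL-KD replicate 2. Of 19 other genes of the INO80 and SRCAP list, which also holds TIP60 subunits, 3, 5 and 2 were called lower in 2-cell, 4-cell and 8-cell embryos, and 0 higher. Ep400, the motor of the TIP60 complex, had 600 and 643 CPM in control and 150 and 160 CPM in MERVL-KD 2-cell libraries (log2 fold change −1.92 ± 0.08, adjusted p = 2.53e-10), and remained lower at the 4-cell (−0.97) and 8-cell (−0.57) stages. Yeats4, a reader of acetylated histones shared by SRCAP and TIP60, had 42.8 and 46.1 CPM in control and 8.27 and 8.88 CPM in MERVL-KD 4-cell libraries (−2.37 ± 0.15, adjusted p = 3.77e-06). It was also called at the 2-cell (−0.67) and 8-cell (−1.46) stages. Ino80d, a subunit of the INO80 complex, was called lower at the 4-cell stage (−0.48, adjusted p = 0.00368), where Ino80 itself was not called.

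Of 19 other genes of the CHD and NuRD group, 6 were called lower and 2 higher at the 2-cell stage. Of all genes tested, 7.39% were called lower and 6.7% higher there. The histone deacetylase Hdac1 was lower at all 3 stages, with 160 and 179 against 108 and 110 CPM at the 2-cell stage (−0.55 ± 0.09, adjusted p = 0.000633), and log2 fold changes of −0.66 and −0.52 later. The histone chaperone subunit Rbbp7 was called at the 2-cell stage, beside Chd4 (−0.60 ± 0.09, adjusted p = 0.000184), and not later (−0.15 and −0.18). The 2 genes called higher were Chd2, a relative of Chd1, with 27.5 and 26.8 CPM in control and 88.5 and 67.6 CPM in MERVL-KD libraries (1.61 ± 0.13, adjusted p = 9.71e-07), and Chd5, a NuRD motor best known from neurons, with 3.57 and 4.05 against 9.60 and 8.68 CPM (1.35 ± 0.22, adjusted p = 0.000686). Both were also called higher at the 4-cell stage (0.86 and 1.08). Per length, Chd1 stood 25.8-fold above Chd2 in control and 6.17-fold in MERVL-KD 2-cell embryos.

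In the remaining groups, the calls of Brd9, Dpf3, Bptf and Hltf in 2-cell embryos were lost with library size alone (log2 fold changes −0.29, −0.22, 0.0018 and −0.40). Of 23 tested genes of BAF other than the 4 members, 3 were called lower and 0 higher at the 2-cell stage. Of all genes tested, 7.39% were called lower there. The 3 genes were the accessory subunits Bicra (−0.65), Brd9 (−0.58) and Dpf3 (−0.51). Smarcd3, a BAF subunit named after its values were seen, had the highest log2 fold change of the listed genes at that stage without passing the test (1.64 ± 0.53, adjusted p = 0.0534). Bicra was again lower at the 4-cell stage (−0.87, adjusted p = 0.00370). Of 10 ISWI partners, 1, 3 and 0 were called lower and 0, 0 and 1 higher at the 2-cell, 4-cell and 8-cell stages. Of all genes tested, 7.39%, 5.84% and 3.56% were called lower and 6.7%, 4.92% and 1.5% higher. Bptf, the large subunit of NURF, was lower at the 2-cell (−0.29) and 4-cell (−0.43) stages, and Pole3 at the 4-cell stage (−0.52). Baz2b was higher at the 8-cell stage (75.3 and 84.7 against 140 and 127 CPM, 0.75 ± 0.10, adjusted p = 0.00173). Among 16 other SNF2 genes and partners, 1, 3 and 0 were called lower at the 3 stages and 0 higher. Hltf was lower at the 2-cell (−0.68) and 4-cell (−0.93) stages. Ercc6l, a motor of mitotic chromosome threads, was lower at the 4-cell stage (−0.52, adjusted p = 0.00980), as was Cdca7, described above.

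**Figure D5:**
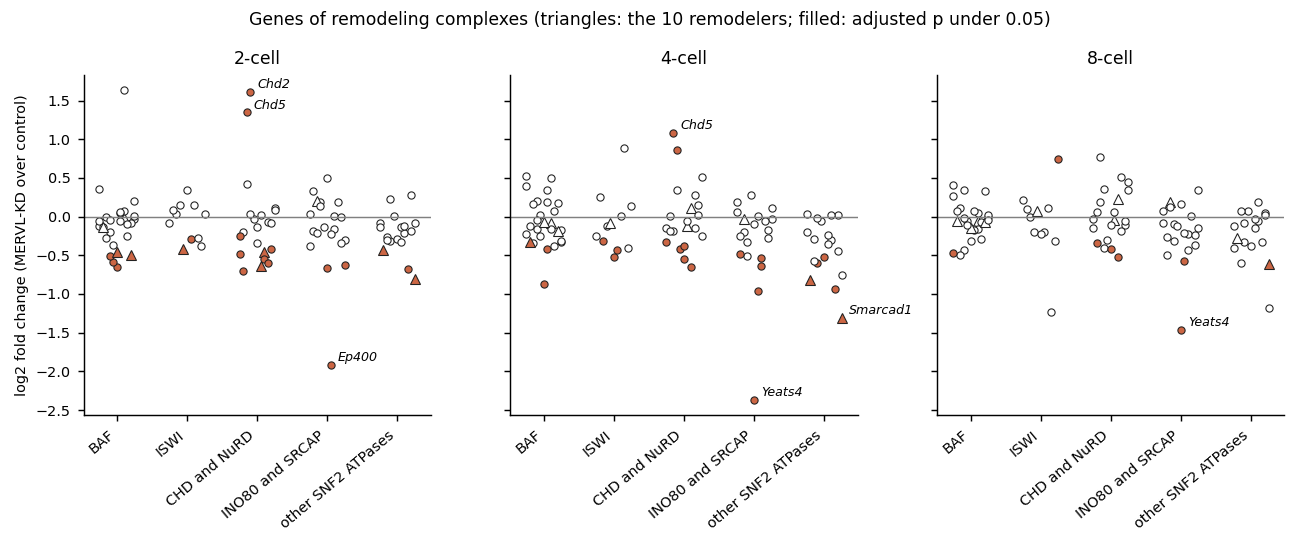
Log2 fold change of MERVL-KD over control for the 10 remodelers (triangles) and 87 other genes of remodeling complexes (circles) at each stage, by complex, with horizontal offsets only to separate points; filled symbols have an adjusted p under 0.05, and names mark called genes with a change of at least 2-fold. Ep400 in 2-cell embryos (−1.92) and Yeats4 in 4-cell embryos (−2.37) lie lowest, and Chd2 and Chd5 (1.61 and 1.35) lie highest among the called genes at the 2-cell stage.

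Across the 12 libraries, the genes most like 3 of the remodelers, those with the widest range of group means, were sought among 24040 genes by Pearson's r of log2 CPM, a description in which all points share libraries and stage. Smarca4, with a range of 2.05 on the log2 scale, was closest to Flvcr2, Gmps and Ptpn2 (r = 0.998, 0.997 and 0.996). Smarcad1 (range 1.95) was closest to Anapc10, Gspt1 and Bzw2 (r = 0.993, 0.990 and 0.988), and Chd4 (range 1.27) to Otud6b, Nr1d2 and Etv6 (r = 0.991, 0.987 and 0.986). Between the remodelers themselves, Smarca5 and Chd4 were most alike (r = 0.978) and Hells and Ino80 least (r = −0.28). Arid1a had the narrowest range, 0.165 on the log2 scale over the 6 groups.

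The 10 genes lie on 8 chromosomes, and they were counted over all annotated exons. In GRCm38, Smarcad1 lies on chromosome 6 from 65042583 to 65116061 and Hells on chromosome 19 from 38930915 to 38971051, both on the plus strand. The promoters of these 2 genes are shown, since they were the remodelers called lower by the most at the 4-cell stage. RefSeq start windows (GRCm38) matched 9 of the 10 genes with 12 windows, and the sequences are limited to the bases before the first annotated exon base in the count files. Capitals mark a GC box (GGGCGG on either strand), which binds Sp and Klf factors.
Smarcad1 promoter, chr6:65042341-65042582, plus strand: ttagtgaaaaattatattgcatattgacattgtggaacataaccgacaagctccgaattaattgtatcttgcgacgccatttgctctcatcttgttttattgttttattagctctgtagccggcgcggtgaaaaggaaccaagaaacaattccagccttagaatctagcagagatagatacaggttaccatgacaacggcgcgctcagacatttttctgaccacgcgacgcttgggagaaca
Hells promoter, chr19:38930740-38930914, plus strand: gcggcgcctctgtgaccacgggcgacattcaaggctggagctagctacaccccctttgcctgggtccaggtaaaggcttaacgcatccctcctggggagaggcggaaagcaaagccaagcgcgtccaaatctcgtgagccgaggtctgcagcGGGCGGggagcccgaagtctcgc
The Smarcad1 stretch is 42.1% G and C and the Hells stretch 64%. Over the full windows, a GC box was found in 10 of 12 windows, of 8 of the 9 genes, all but Smarcad1, and in 35.7% of 32851 windows of all genes. A CCAAT box (CCAAT on either strand) was found in windows of 3 of the 9 genes (Chd4, Ino80 and Smarcad1) and in 37.4% of all windows, and the palindromic NRF1 site in none of the 12 and in 0.971% of all windows. The motifs were searched as plain letters and overlaps between them were allowed.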

How the data were processed

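Count files of 12 RNA libraries were used; 12 ATAC-seq libraries were not used here. The authors aligned reads with STAR 2.5.3a to GRCm38, kept unique alignments, counted them with featureCounts per GENCODE gene and per RepeatMasker family, and deposited raw counts (56326 names, of which 1035 are repeat families). Low counts were even in 71.8% to 74.7% of cases, so mates of a pair were mostly counted separately, and counts overstate fragments. Intervals and p-values rest on the spread between 2 libraries per group, which edgeR moderates with the spread of all features tested. In the fits of all 12 libraries the groups share that estimate. The strand setting of the counting is not given in the sources used here.

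Fold changes were computed with edgeR 4.0.16 in R 4.3.3 (filterByExpr, TMM, robust quasi-likelihood test), on the 4 libraries of a stage for MERVL-KD against control and on all 12 for stages and for differences between stages. The Benjamini-Hochberg adjustment ran over every gene and repeat family tested, and a gene was called at an adjusted p under 0.05. Background shares count genes only. CPM values (counts per 1000000) are TMM-scaled over 12 libraries. The members, the lists of complexes and markers and the rules for named genes were chosen with earlier results of these data known. Named genes are the 10 members, other listed genes called with at least 2-fold change, the 3 of each group with the smallest adjusted p, the paralogs, and the 3 genes most like each of 3 members. Alternatives were DESeq2 1.42.0, its size factors, library size alone, filters of at least 1 count and of at least 10 counts in every library, genes only, the replicate number as a block, a 2-fold rule, halved counts, a non-robust fit, other sets of libraries in the fit, and each library left out. The fit was tested on simulated data. Sites and promoter letters were read from GRCm38 and RefSeq tables.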

Additional observations from a re-analysis of the deposited data

Results flagged for a closer look

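The knockdown effect differed between stages, in a test of the difference itself, for 3 remodelers in the contrasts of neighbouring stages. The log2 fold change of MERVL-KD over control was higher at the 4-cell than at the 2-cell stage by 0.60 for Chd4 and by 0.64 for Chd1, and higher at the 8-cell than at the 4-cell stage by 0.69 for Smarcad1. Of all genes, 2.51% were called higher in the first contrast and 0.275% in the second. With library size alone Chd1 and Chd4 were no longer called (adjusted p = 0.173 and 0.160 in edgeR). Smarca5 was not called in the first contrast (adjusted p = 0.0558 in edgeR) but was under DESeq2 (0.0100). The Smarcad1 call depended on single libraries, as given above.

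In the contrast of the 8-cell with the 2-cell effect, added after the values had been seen, the difference passed for Chd4 (0.67), Smarca5 (0.57), Smarca4 (0.50) and Chd1 (0.76). Of all genes, 2.39% were called higher in it. With library size alone Smarca5 and Smarca4 were no longer called.

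For Smarca5, both MERVL-KD libraries lay below both controls at the 4-cell stage (667 and 659 against 705 and 705 CPM) and above both at the 8-cell stage (772 and 784 against 756 and 727 CPM); the difference between these effects, 0.16, did not pass the test (adjusted p = 0.665). The share of all genes with such a separation was not counted at these 2 stages. The CPM values are TMM-scaled, and whether the libraries also separate with library size alone was not tested. Groups of 2 libraries were not searched for outlying samples.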

How the results depend on the processing

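The limits are few libraries and an open scale. With 2 libraries per group a single library decided several calls, and the 2-cell calls depended on the scale. The median log2 fold change of all genes at that stage was 0.01 with TMM, 0.003 with DESeq2 size factors and 0.30 with library size alone. The cause of this difference was not tested. Counting both mates makes counting error larger than the counts imply, although halved counts gave the same side of the threshold in the numbers of members called. Except where named below, the number of members called stayed within 1.5 times of the reported number under every alternative.

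With library size alone, the members called at the 2-cell stage went from 7 to 4, at the 8-cell stage from 1 to 2, between the control 4-cell and 8-cell stages from 0 to 3, between the MERVL-KD 4-cell and 8-cell stages from 2 to 1, and in the contrast of the 8-cell with the 2-cell effect from 4 to 2; in the contrast of the 4-cell with the 2-cell effect the number stayed at 2 with other genes, as given above. The filter of at least 10 counts gave 1 member between the control 4-cell and 8-cell stages, and a fit of only the 4 libraries compared gave 2 there and 1 in MERVL-KD embryos. DESeq2 gave 2 members in the contrast of the 8-cell with the 4-cell effect. Under a rule that also asks for a 2-fold change the numbers were 0, 1 and 0 for the knockdown at the 3 stages, 3 for each group from the 2-cell to the 4-cell stage, 0 from the MERVL-KD 4-cell to the 8-cell stage, and 0 in each contrast between effects. With a library left out, the members called ranged from 1 to 2 for the knockdown at the 8-cell stage and between the MERVL-KD 4-cell and 8-cell stages, from 0 to 3 in the contrast of the 4-cell with the 2-cell effect, from 0 to 1 in that of the 8-cell with the 4-cell effect, and from 1 to 4 in that of the 8-cell with the 2-cell effect. The cause was not tested.

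The values whose sign turned had no call as reported. With library size alone these were, at the 2-cell stage, Arid1a (0.27, then called) and Smarcc1 (0.15), at the 4-cell stage Ino80 (0.0396), and at the 8-cell stage Arid1a (0.0659), Chd4 (0.0754), Smarca4 (0.0493) and Smarcc1 (0.0653). From the control 2-cell to the 4-cell stage it was Hells (0.11), from the control 4-cell to the 8-cell stage Chd4 (−0.16), Smarca5 (−0.13), Smarca4 (−0.0501) and Smarcb1 (−0.0362), and in MERVL-KD embryos Arid1a (−0.10) and then Chd4 (−0.032) and Smarcb1 (−0.0419). In the contrasts between effects it was Arid1a (−0.29 for the 4-cell with the 2-cell effect) and Ino80 (−0.16), Arid1a (−0.20), Smarcc1 (−0.0838) and Hells (−0.0106) for the 8-cell with the 2-cell effect. Under DESeq2, and under its size factors, Arid1a turned from the 2-cell to the 4-cell stage in control (−0.0343) and MERVL-KD embryos (−0.0109) and in the contrast of the 8-cell with the 4-cell effect (−0.0046). With at least 10 counts, Arid1a turned in the same stage changes (−0.0433 and −0.12) and in the contrasts with the 2-cell effect (−0.0723 for the 4-cell and −0.0604 for the 8-cell effect), as did Ino80 (−0.0283), and in a fit of only 4 libraries Hells did from the control 2-cell to the 4-cell stage (0.0266).

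With a library left out, the log2 fold change of Arid1a ranged from −0.0893 to 0.0228 at the 2-cell stage, from −0.0538 to 0.084 and from −0.0586 to 0.11 from the 2-cell to the 4-cell stage of control and MERVL-KD embryos, from −0.12 to 0.01 from the MERVL-KD 4-cell to the 8-cell stage, and from −0.14 to 0.0817, −0.0225 to 0.12 and −0.11 to 0.10 in the contrasts of the 4-cell with the 2-cell, the 8-cell with the 4-cell and the 8-cell with the 2-cell effect. Ino80 ranged from −0.13 to 0.0652 at the 4-cell stage, from −0.15 to 0.0152 from the MERVL-KD 4-cell to the 8-cell stage, and from −0.12 to 0.12 in the contrast of the 8-cell with the 2-cell effect. Smarcb1 ranged from −0.25 to 0.0758 at the 4-cell stage, from −0.0657 to 0.31 from the MERVL-KD 4-cell to the 8-cell stage, and from −0.24 to 0.13 in the contrast of the 8-cell with the 4-cell effect. Chd4 ranged from −0.11 to 0.0049 and Smarca4 from −0.17 to 0.0115 at the 8-cell stage, and Hells from −0.12 to 0.0089 from the control 2-cell to the 4-cell stage.

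The labels give replicate numbers but no shared litter or day, and the deviations of same-numbered libraries correlated at −0.11, 0.033 and 0.031 at the 3 stages over 10116 features, so the numbers were not taken to pair samples. The replicate number as a block gave 7, 2 and 1 members called lower at the 3 stages, and the crossed pairing, added after seeing the data, 7 at the 2-cell stage.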

Other observations

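A few genes of remodeling complexes outside the 10 were called for a difference between stages in their knockdown effect, and they are named here after their values were seen. From the 2-cell to the 4-cell stage the signed log2 fold change of MERVL-KD over control rose for Ep400 by 1.03 (adjusted p = 0.000243 in edgeR) and for Rbbp4 by 0.59 (0.0428). It fell by 1.62 for Yeats4 (2.4e-05) and by 0.78 for Pole3 (0.0124), a histone-fold subunit shared by the CHRAC remodeler and a DNA polymerase. For Ep400 the rise was a weaker decrease (−1.92 and −0.97 in the fits of each stage). For Yeats4 the fall was a stronger decrease (−0.67 and −2.37). From the 4-cell to the 8-cell stage the log2 fold change rose by 0.90 for Yeats4 (0.0307) and fell by 0.76 for Hdac2 (0.0380). These were 2 higher and 2 lower of 87 genes in the first contrast, where 2.51% of all genes were called higher and 1.64% lower, and 1 of each in the second, where 0.275% were called higher and 0.349% lower. The first counts are near the share over all genes, and nothing is read from them.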
